A study of Mus musculus with 20 samples.

Results

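The collagen genes examined here are the 43 of 17880 genes, listed in either of 2 deposited mouse brain count tables, whose symbol names a collagen chain and whose mean reached at least 0.5 CPM (a gene's raw count scaled to the total of its library) in at least 1 of 4 groups. All 43 were listed in both tables. Of 44 genes with such a symbol only Col17a1 stayed below the threshold, with its highest group mean at 0.449 CPM in wild-type cortex. Just above the threshold were Col6a6, with a highest group mean of 0.526 CPM, and Col9a1, with 0.576 CPM. By the structure of their chains the 43 genes fall into 11 fibril-forming collagens, 6 chains of the type IV network, 6 chains of type VI, 3 short-chain network collagens, 9 fibril-associated collagens, 3 transmembrane collagens, 2 multiplexins and 3 others.

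The study sequenced total RNA from frozen frontal cortex and hippocampus of C57Bl6/J mice that were wild type or lacked Ncs1 (Ncs1-/-), which encodes a calcium-binding protein of neurons. There were 5 libraries in each of the 4 groups, 20 in all: wild-type cortex, Ncs1-/- cortex, wild-type hippocampus and Ncs1-/- hippocampus. No treatment is named. Neither the age of the mice nor how the allele was made is given. The labels do not say that the libraries of a group came from separate mice, so each p-value measures the spread between these libraries only.

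The library with the fewest counts held 16.6 M and that with the most 34.6 M, with a median of 21.0 M. Ncs1 itself was lower in Ncs1-/- than in wild type by 0.51 on the log2 scale in cortex (SE 0.04, edgeR adjusted p = 1.75e-05) and by 0.55 in hippocampus (SE 0.05, edgeR adjusted p = 0.00145), with no overlap between the groups, and it was still counted at 256 to 265 CPM in the Ncs1-/- cortex libraries. The tissue labels fit the markers of the regions' neurons: 6 hippocampal neuron markers summed to 122 to 192 CPM in cortex and 436 to 673 CPM in hippocampus. Markers of neighbouring tissue varied. Summed over 8 striatal neuron markers, the level was 627 to 1195 CPM in cortex and 89.2 to 133 CPM in hippocampus. Ttr, the transthyretin gene that choroid plexus transcribes heavily, stood at 1994 CPM in wild-type hippocampus replicate 4, 3106 CPM in Ncs1-/- hippocampus replicate 2 and 318 CPM in Ncs1-/- hippocampus replicate 4, against 2.98 to 28.7 CPM in the other 7 hippocampus libraries. Without those 3 libraries the Ncs1 difference in hippocampus was -0.53 (edgeR adjusted p = 0.255). In cortex Ttr was at 207 CPM in Ncs1-/- replicate 1 and at 0.105 to 1.76 CPM in the other libraries. The library names in the labels end in one lane tag for all cortex libraries and another for all hippocampus libraries, so region and lane cannot be told apart.

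Collagens are proteins of 3 chains wound into a triple helix, built in the endoplasmic reticulum, hydroxylated and crosslinked by dedicated enzymes, and mostly secreted. Fibril-forming collagens give tissues tensile strength, type IV chains form the sheet of basement membranes, and fibril-associated collagens sit on the surface of fibrils. In brain the parenchyma holds little fibrillar collagen, which lies in the meninges and around larger vessels, while type IV collagen lines the capillaries. Several collagens are also transcribed by neurons, among them Col19a1 and the transmembrane collagen Col25a1. In bulk tissue, fewer cells of a type and less RNA per cell cannot be told apart.

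The summed level of the 43 genes, scaled to the library total only, was 415 to 601 CPM per library, with a median of 535 CPM. Levels between genes were compared as CPM per kilobase of exonic length. In cortex the order was Col6a1 with 14.3 CPM per kilobase, Col4a2 with 8.38, Col19a1 with 7.55, Col4a1 with 6.38, Col25a1 with 5.61 and Col5a1 with 3.18. In hippocampus Col4a2 came first with 10.6 CPM per kilobase, followed by Col6a1 with 8.004, Col25a1 with 7.97, Col4a1 with 7.72, Col19a1 with 5.30 and Col9a3 with 3.06. The leading genes were thus 2 type IV chains of the vessel basement membrane, 1 chain of the type VI filament, and the neuronal collagens Col19a1 and Col25a1. Fibrillar Col1a1, Col1a2 and Col3a1 were lower, at 1.38, 1.51 and 0.295 CPM per kilobase in cortex. At the bottom stood Col6a6 with 0.0442 CPM per kilobase in cortex and 0.0421 in hippocampus.

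The spread between libraries of a group differed widely among members. The median coefficient of variation of the 43 genes was 24.3% in wild-type cortex, 18.5% in Ncs1-/- cortex, 32.4% in wild-type hippocampus and 26.8% in Ncs1-/- hippocampus. Col4a1 was among the steadiest, with 11.7%, 6.09%, 8.21% and 4.60% in the same order. Col8a1, a chain of a short-chain network collagen, varied by 8.94% in wild-type cortex but by 169.6% in wild-type hippocampus and 155% in Ncs1-/- hippocampus.

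**Figure D1:**
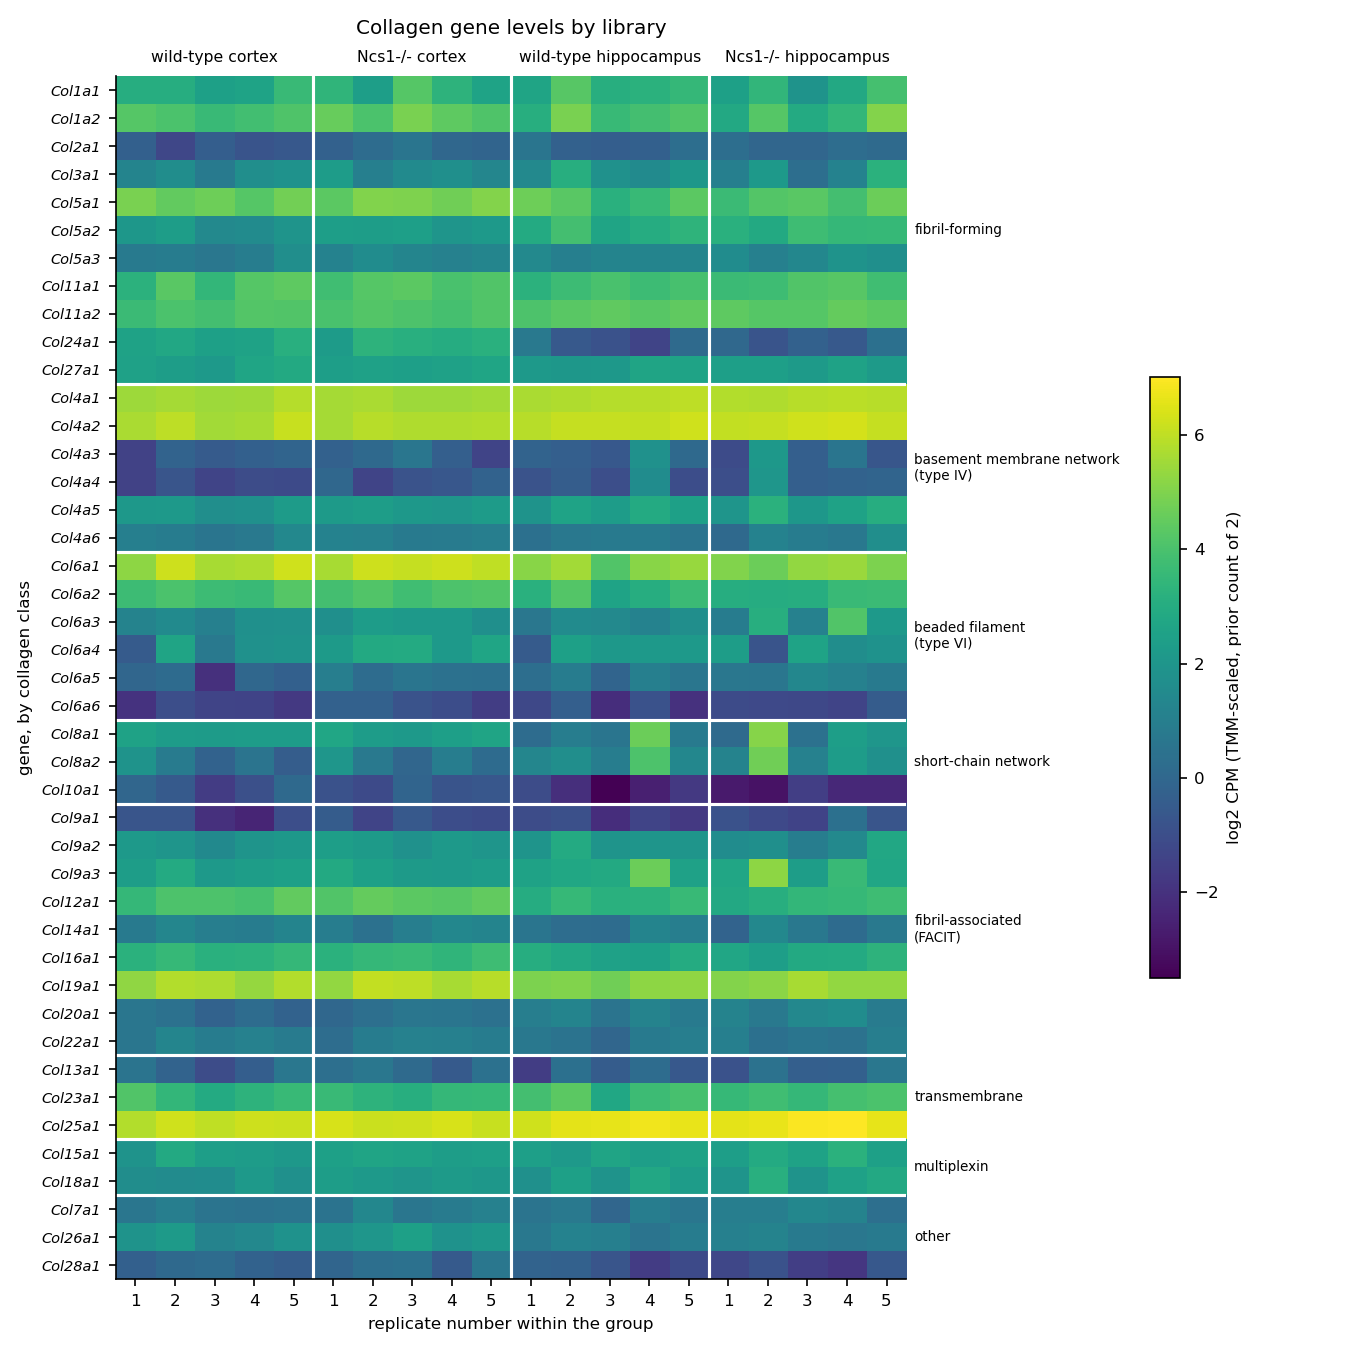
Log2 CPM (TMM-scaled, prior count of 2, colour) of the 43 collagen genes (rows, grouped by class) in the 20 libraries (columns, replicates 1 to 5 of each group). Col4a1 and Col4a2 keep nearly the same colour along their rows, Col24a1 is darker in the 10 hippocampus libraries, and Col8a1, Col8a2 and Col9a3 are brightest in wild-type hippocampus replicate 4 and Ncs1-/- hippocampus replicate 2.

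The first question was where in the brain each collagen was higher. Hippocampus was compared with cortex within each genotype by edgeR's quasi-likelihood test, with p-values adjusted after Benjamini and Hochberg over all genes tested. In wild type 39 of the 43 genes passed the filter on low counts, and 12 of them (30.8%) passed an adjusted p of 0.05, 6 higher and 6 lower in hippocampus, where 39.5% of all genes passed, 18.8% higher and 20.7% lower. In Ncs1-/- 41 were tested and 18 (43.9%) passed, 9 higher and 9 lower, against 38.8% of all genes, 19.2% higher and 19.6% lower. Both shares lay near those of all genes. With the libraries scaled by total counts only, the wild-type split became 11 higher and 6 lower. Without the 3 hippocampus libraries with the most Ttr, the wild-type split was 6 to 7 and that of Ncs1-/- 6 to 9. The shares of all genes under these settings are not given here, so these splits are not read as a trait of the collagens. The median log2 difference of the collagens was 0.21 in wild type and 0.07 in Ncs1-/-, and that of all genes was 0.01 in each. Of 39 genes tested in both genotypes, 5 were higher in both, 6 lower in both, 1 passed in wild type only and 7 in Ncs1-/- only, and 0 passed in opposite directions. Groups without overlap were found for 5 collagens in wild type (12.8%, against 29.4% of all genes) and for 12 in Ncs1-/-, 6 higher and 6 lower (14.7% and 14.9% of all genes).

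**Figure D2:**
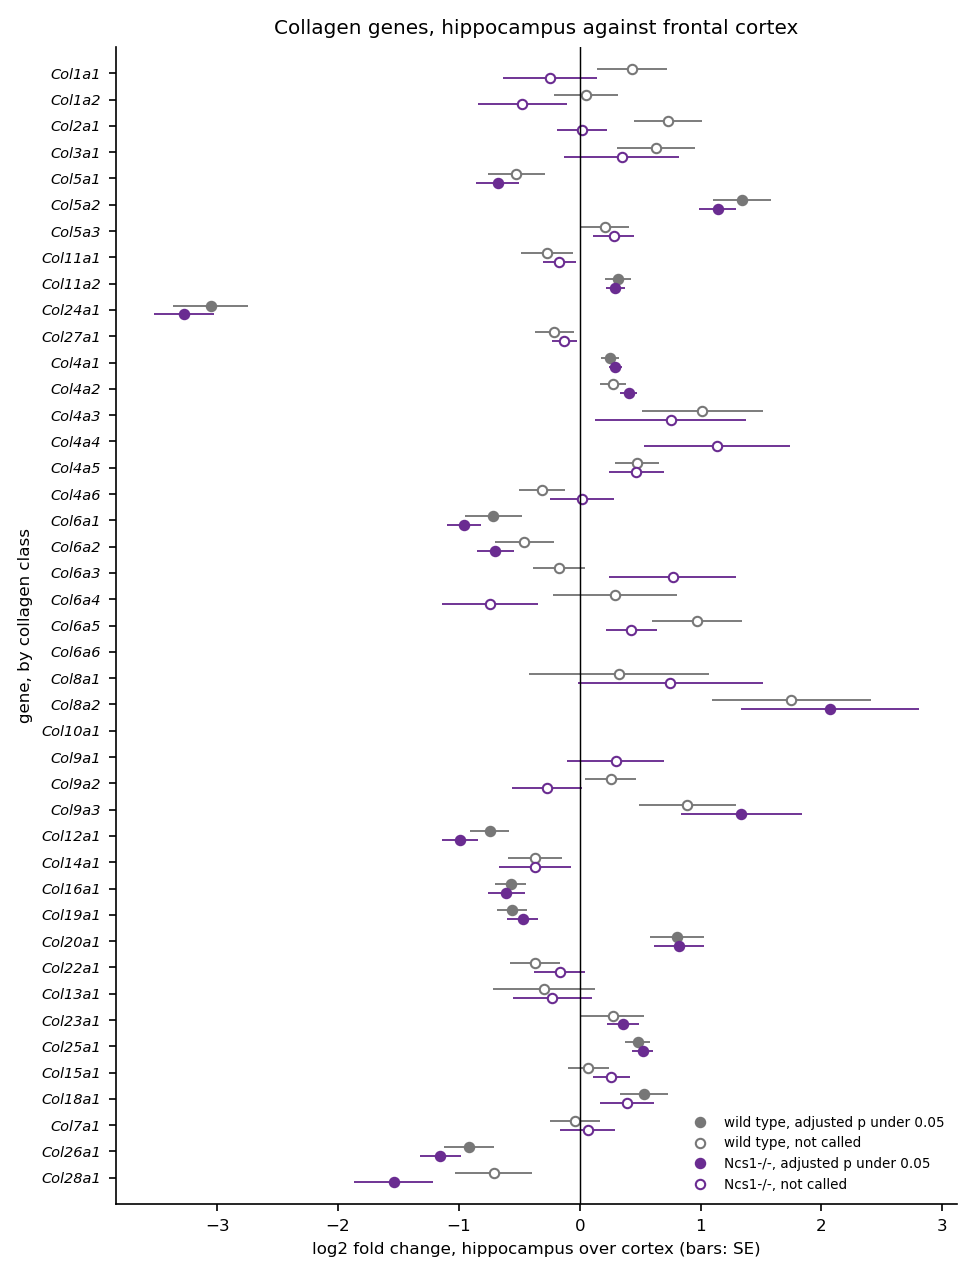
Log2 fold change of hippocampus over frontal cortex (x axis, bars are standard errors) for each tested collagen gene (y axis, by class) in wild type (grey) and Ncs1-/- (purple). Filled points passed an adjusted p of 0.05. Col24a1 lies far left at -3.05 and -3.28, Col5a2 lies right at 1.34 and 1.14, and the widest bars belong to Col8a1 and Col8a2.

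Among the 11 fibril-forming collagens 2 were higher and 1 lower in hippocampus in wild type, and 2 were higher and 2 lower in Ncs1-/-. Col24a1, a fibril-forming collagen known from bone and cornea, showed the widest difference of the whole set. It lies on chromosome 3 at 145292472 to 145552012 on the plus strand (mm10). Its level in wild-type cortex was 5.75, 6.86, 5.42, 5.83 and 8.69 CPM in replicates 1 to 5, and in wild-type hippocampus 1.59, 0.578, 0.468, 0.309 and 1.02 CPM. In Ncs1-/- the cortex libraries held 4.71, 9.78, 8.70, 7.89 and 8.89 CPM and the hippocampus libraries 0.946, 0.503, 0.756, 0.580 and 1.22 CPM. The lowest cortex library of either genotype was well above the highest hippocampus library. Col24a1 was 8.31-fold lower in wild-type hippocampus (log2 difference -3.05, SE 0.31, edgeR adjusted p = 5.38e-06) and 9.68-fold lower in Ncs1-/- hippocampus (log2 difference -3.28, SE 0.25, edgeR adjusted p = 2.12e-07). Of 6 markers of cortical neurons 5 were lower in hippocampus in each genotype and 1, Fezf2, was higher, by 0.68 in wild type and 0.87 in Ncs1-/-, with summed levels of 466 to 590 CPM in cortex and 168 to 262 CPM in hippocampus. The striatal markers were lower as well, 8 of 8 in each genotype, and the part of either in the Col24a1 difference was not tested.

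Col5a2, the second chain of the fibril-regulating type V collagen, moved the other way. Located on chromosome 1 at 45374331 to 45503283 on the minus strand, it was counted at 4.06, 5.03, 2.67, 2.89 and 3.75 CPM in wild-type cortex and at 7.62, 14.7, 6.17, 8.07 and 10.2 CPM in wild-type hippocampus. The Ncs1-/- libraries gave 5.12, 4.99, 5.32, 3.92 and 4.47 CPM in cortex and 9.04, 7.28, 13.3, 11.2 and 11.7 CPM in hippocampus. Again the regions did not overlap in either genotype. The rise in hippocampus was 2.54-fold in wild type (log2 difference 1.34, SE 0.24, edgeR adjusted p = 5.65e-04) and 2.20-fold in Ncs1-/- (1.14, SE 0.15, edgeR adjusted p = 5.44e-05). Its partner Col5a1, which forms trimers with it, went the opposite way, at 24.9 ± 4.39 CPM (SD, n = 5) in wild-type cortex and 17.4 ± 6.83 CPM in wild-type hippocampus, and passed the test in Ncs1-/- only (log2 difference -0.68, SE 0.18, edgeR adjusted p = 0.00767). Col11a2, a chain of the type XI collagen of cartilage fibrils, was modestly higher in hippocampus in both genotypes, by 0.32 (SE 0.10, edgeR adjusted p = 0.0283) and 0.29 (SE 0.08, edgeR adjusted p = 0.00974). For the major fibrillar collagens of connective tissue the regions overlapped: Col1a2 held 15.9 ± 2.71 CPM (SD, n = 5) in wild-type cortex and 16.4 ± 8.20 CPM in wild-type hippocampus.

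Type IV collagen is the network of basement membranes, and in capillaries it consists mostly of Col4a1 and Col4a2 chains. These genes stand head to head on chromosome 8, Col4a1 at 11198423 to 11312827 on the minus strand and Col4a2 at 11312805 to 11449288 on the plus strand, and overlap by 23 bases. Col4a1 was counted at 44.3, 48.0, 43.9, 45.5 and 57.4 CPM in wild-type cortex and at 50.8, 55.0, 57.1, 60.0 and 63.0 CPM in wild-type hippocampus. The groups overlapped through the fifth cortex replicate, and the rise was 0.25 on the log2 scale (SE 0.08, edgeR adjusted p = 0.0216). In Ncs1-/- Col4a1 held 48.8, 51.3, 44.2, 45.1 and 47.6 CPM in cortex and 55.9, 54.5, 60.0, 60.3 and 59.8 CPM in hippocampus, which did not overlap (log2 difference 0.30, SE 0.05, edgeR adjusted p = 5.22e-04). Col4a2 went from 56.4 ± 10.4 to 68.4 ± 6.25 CPM (SD, n = 5 each) in wild type without passing the test (log2 difference 0.27, edgeR adjusted p = 0.0621), although it passed with 5 other settings. Of the fits that left out 1 library, 2 of 10 called Col4a2, those without cortex replicate 5 or hippocampus replicate 1. In Ncs1-/- it rose from 54.6 ± 4.13 to 72.3 ± 6.65 CPM (log2 difference 0.41, SE 0.07, edgeR adjusted p = 3.50e-04). Endothelial markers were not higher in hippocampus: their summed level was 291 to 347 CPM in cortex and 251 to 287 CPM in hippocampus, and of 9 markers 4 were lower in wild-type and 3 in Ncs1-/- hippocampus, with 0 higher. Mural cell markers summed to 272 to 312 CPM in cortex and 243 to 375 CPM in hippocampus.

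The pair kept a narrow ratio. Per kilobase, Col4a2 over Col4a1 was 1.12 to 1.48 in the 10 cortex libraries (median 1.31) and 1.26 to 1.52 in the 10 hippocampus libraries (median 1.37). By comparison Col4a3 over Col4a4, low-expressed chains of specialised basement membranes, ranged from 0.410 to 3.37 in cortex and 0.698 to 2.56 in hippocampus. Col4a5 over Col4a6 ranged from 2.16 to 3.02 in cortex and 2.705 to 5.23 in hippocampus. The neighbours of each of these pairs also lie head to head, on chromosomes 1 and X. Col4a3 begins at 82586921 on the plus strand and Col4a4 at 82586850 on the minus strand, so these starts are close as well. The start sites of Col4a5 and Col4a6 are 1343 bases apart. Whether the distance between starts goes with the ratio was not tested. Because Col4a1 and Col4a2 levels ran side by side, their start regions are shown here, each from 250 bases before to 50 bases after the annotated start (RefSeq, GRCm38.p6), at chr8:11312777-11313076 on the minus strand and chr8:11312555-11312854 on the plus strand. Capitals mark the GC box letters GGGCGG and the CCAAT box letters CCAAT, or their complements, searched on both strands.
Col4a1: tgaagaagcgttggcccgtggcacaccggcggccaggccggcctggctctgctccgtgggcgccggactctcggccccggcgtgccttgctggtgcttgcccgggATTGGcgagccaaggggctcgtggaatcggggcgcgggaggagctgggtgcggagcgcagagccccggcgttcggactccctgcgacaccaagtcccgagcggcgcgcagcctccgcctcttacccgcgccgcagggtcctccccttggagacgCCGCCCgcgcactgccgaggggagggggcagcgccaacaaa
Col4a2: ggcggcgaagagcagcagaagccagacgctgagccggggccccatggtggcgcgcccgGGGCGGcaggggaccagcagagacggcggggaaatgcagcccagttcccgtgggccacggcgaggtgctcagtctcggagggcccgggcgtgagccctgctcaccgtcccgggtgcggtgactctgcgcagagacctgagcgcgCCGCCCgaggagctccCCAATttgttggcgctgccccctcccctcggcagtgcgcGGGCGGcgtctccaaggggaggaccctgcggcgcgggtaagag
The start sites are 21 bases apart and the windows share 78 bases. The Col4a1 window holds 1 GC box and 1 CCAAT box, the Col4a2 window 3 GC boxes and 1 CCAAT box, and neither holds TATAAA. The GC box of the Col4a1 window and the last GC box of the Col4a2 window are the same bases, inside the shared stretch. Windows were found for 34 of the 43 genes, 37 windows in all. GGGCGG stood in 62.2% of these and in 35.7% of 32851 mouse windows, CCAAT in 32.4% and 37.4%, and TATAAA in 10.8% and 13.6%, which describes the letters and not any binding.

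Type VI collagen forms beaded filaments next to basement membranes, and its chains were lower in hippocampus where they passed the test. Col6a1 (chromosome 10, 76708792 to 76726045, minus strand) was counted at 37.6, 74.6, 49.8, 52.6 and 76.7 CPM in wild-type cortex and at 34.9, 47.7, 18.1, 35.5 and 42.4 CPM in wild-type hippocampus. In Ncs1-/- it held 49.8, 75.0, 69.2, 74.6 and 65.1 CPM in cortex and 32.8, 25.2, 39.4, 43.8 and 30.8 CPM in hippocampus. The regions overlapped in wild type and not in Ncs1-/-, with log2 differences of -0.71 (SE 0.24, edgeR adjusted p = 0.0293) and -0.96 (SE 0.14, edgeR adjusted p = 1.06e-04). Col6a2, which joins the same trimer, passed in Ncs1-/- only, from 16.1 ± 1.87 to 9.91 ± 2.47 CPM (SD, n = 5 each, log2 difference -0.70, SE 0.15, edgeR adjusted p = 0.00228). The trimer's long chain, Col6a3, did not pass in either genotype and was uneven in Ncs1-/- hippocampus, where it held 1.80, 8.44, 2.06, 17.9 and 4.35 CPM.

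The short-chain collagens Col8a1 and Col8a2 form the hexagonal network of the corneal Descemet membrane and occur in vessel walls, and their hippocampus levels rested on 3 libraries. Col8a1 (chromosome 16, 57624256 to 57754738, minus strand) was even in cortex, with 5.87, 4.84, 4.80, 4.90 and 4.89 CPM in wild type and 6.57, 4.84, 4.53, 5.33 and 6.11 CPM in Ncs1-/-. In hippocampus it held 1.06, 1.83, 1.40, 25.05 and 1.71 CPM in wild type and 1.005, 34.8, 1.26, 5.18 and 4.04 CPM in Ncs1-/-. The highest values belong to the libraries with the most Ttr, and the other 4 wild-type hippocampus libraries lie below each cortex library. Over all libraries the regional difference of Col8a1 was 0.32 in wild type (edgeR adjusted p = 0.758) and 0.75 in Ncs1-/- (edgeR adjusted p = 0.473). Without the 3 hippocampus libraries with the most Ttr it was -1.75 in wild type (SE 0.16, edgeR adjusted p = 4.14e-06) and -1.35 in Ncs1-/- (SE 0.37, edgeR adjusted p = 0.0173), an alternative chosen after the values had been seen.

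Col8a2 (chromosome 4, 126286794 to 126314331, plus strand) was counted at 3.61, 1.74, 0.774, 1.37 and 0.677 CPM in wild-type cortex and at 2.41, 3.18, 1.82, 16.7 and 2.53 CPM in wild-type hippocampus. The Ncs1-/- libraries gave 3.95, 1.60, 0.896, 1.86 and 1.03 CPM in cortex and 2.22, 26.8, 2.10, 4.83 and 3.38 CPM in hippocampus. It shared the high libraries with Col8a1, and its other hippocampus values, 1.82 to 3.38 CPM, lay within the cortex range of 0.677 to 3.95 CPM. Its log2 difference was 1.75 in wild type (SE 0.66, edgeR adjusted p = 0.0510) and 2.07 in Ncs1-/- (SE 0.73, edgeR adjusted p = 0.0397), and the Ncs1-/- value became 0.47 and was no longer called without the libraries with the most Ttr. The start regions of this pair, whose products assemble together and whose levels were high in the same libraries, lie on different chromosomes, at chr16:57754688-57754987 on the minus strand and chr4:126286544-126286843 on the plus strand (RefSeq, GRCm38.p6). Capitals mark GGGCGG or its complement, some of them overlapping.
Col8a1: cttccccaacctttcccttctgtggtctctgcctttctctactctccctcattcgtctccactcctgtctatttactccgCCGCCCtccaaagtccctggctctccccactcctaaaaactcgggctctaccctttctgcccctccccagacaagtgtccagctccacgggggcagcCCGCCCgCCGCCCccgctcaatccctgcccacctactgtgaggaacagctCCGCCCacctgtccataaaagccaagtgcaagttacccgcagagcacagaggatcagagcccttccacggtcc
Col8a2: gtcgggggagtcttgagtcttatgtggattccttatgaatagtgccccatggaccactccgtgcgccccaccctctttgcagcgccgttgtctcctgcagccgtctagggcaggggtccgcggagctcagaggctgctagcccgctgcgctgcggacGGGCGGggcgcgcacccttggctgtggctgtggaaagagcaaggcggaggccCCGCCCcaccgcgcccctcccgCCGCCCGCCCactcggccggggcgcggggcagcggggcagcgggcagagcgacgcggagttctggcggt
Each of the 2 windows holds 4 GC boxes, and neither holds TATAAA or CCAAT. Col10a1, the cartilage member of this class, was tested in neither regional comparison and lies wholly inside the span of Nt5dc1 on the other strand, so its reads could not be separated without a stated strand setting.

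Of the fibril-associated collagens 8 were tested in wild type, where 1 was higher and 3 were lower in hippocampus, and 9 in Ncs1-/-, where 2 were higher and 3 lower. Col19a1, which some interneurons transcribe, was counted at 38.9, 55.2, 52.9, 41.1 and 55.6 CPM in wild-type cortex and at 30.4, 32.4, 26.9, 37.5 and 39.0 CPM in wild-type hippocampus. The highest hippocampus value lay just above the lowest cortex value. Its log2 difference was -0.56 in wild type (SE 0.12, edgeR adjusted p = 0.00270) and -0.47 in Ncs1-/- (SE 0.13, edgeR adjusted p = 0.00923). Col12a1, a large collagen that decorates type I fibrils, fell from 16.6 ± 4.03 to 9.97 ± 1.71 CPM in wild type (SD, n = 5 each, log2 difference -0.75, SE 0.16, edgeR adjusted p = 0.00253) and from 20.6 ± 2.30 to 10.3 ± 2.54 CPM in Ncs1-/- (-0.99, SE 0.15, edgeR adjusted p = 1.47e-04). Col16a1 fell by 0.57 (SE 0.13, edgeR adjusted p = 0.00308) and 0.61 (SE 0.15, edgeR adjusted p = 0.00590). Col20a1 was the member of the class that was higher in hippocampus in both genotypes, by 0.81 (SE 0.22, edgeR adjusted p = 0.0111) and 0.82 (SE 0.21, edgeR adjusted p = 0.00690), at 1.07 ± 0.303 CPM in wild-type cortex and 1.87 ± 0.377 CPM in wild-type hippocampus (SD, n = 5 each). Col9a3, a chain of the type IX collagen of cartilage, passed in Ncs1-/- only (1.34, SE 0.50, edgeR adjusted p = 0.0492). Its call rested on the libraries with the most Ttr, since the difference was 0.18 without them.

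Transmembrane collagens stay anchored in the membrane of the cell that makes them. Col25a1, a neuronal collagen also known as the collagenous component of amyloid plaques (chromosome 3, 130180845 to 130599884, plus strand), was counted at 55.7, 76.5, 64.5, 75.4 and 71.7 CPM in wild-type cortex and at 76.9, 95.03, 98.8, 111 and 100.4 CPM in wild-type hippocampus. In Ncs1-/- it held 82.5, 72.4, 74.3, 83.3 and 69.9 CPM in cortex and 95.9, 101, 124, 129.7 and 99.1 CPM in hippocampus. The regions did not overlap in either genotype, and the rise was 0.48 in wild type (SE 0.10, edgeR adjusted p = 0.00192) and 0.52 in Ncs1-/- (SE 0.09, edgeR adjusted p = 3.49e-04). Col23a1 passed in Ncs1-/- only (0.36, SE 0.13, edgeR adjusted p = 0.0424), and was at 0.30 (edgeR adjusted p = 0.168) without the libraries with the most Ttr. The multiplexin Col18a1, the source of endostatin in vessel basement membranes, passed in wild type only (0.53, SE 0.20, edgeR adjusted p = 0.0478). Of the 3 remaining genes, Col26a1 fell by 0.92 in wild type (SE 0.21, edgeR adjusted p = 0.00330) and 1.15 in Ncs1-/- (SE 0.17, edgeR adjusted p = 1.22e-04), with no overlap in either genotype. Its cortex libraries held 2.24 to 5.48 CPM and its hippocampus libraries 1.39 to 2.24 CPM. Col28a1 passed in Ncs1-/- only, where it was 2.90-fold lower in hippocampus (log2 difference -1.54, SE 0.33, edgeR adjusted p = 0.00205).

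The 20 collagens tested in both genotypes that passed in neither were Col1a1, Col1a2, Col2a1, Col3a1, Col5a3, Col11a1, Col27a1, Col4a3, Col4a5, Col4a6, Col6a3, Col6a4, Col6a5, Col8a1, Col9a2, Col14a1, Col22a1, Col13a1, Col15a1 and Col7a1. Nearest to the threshold in wild type were Col4a5, the chain altered in Alport syndrome, with 0.48 (edgeR adjusted p = 0.0527), Col6a5 with 0.97 (edgeR adjusted p = 0.0536) and Col2a1 with 0.73 (edgeR adjusted p = 0.0569). Col1a1 was at 0.43 in wild type and -0.25 in Ncs1-/-, and Col6a4 at 0.29 and -0.74, so these genes differed in sign between the genotypes without passing in either. Col4a4 and Col9a1 were tested in Ncs1-/- only and did not pass, and Col6a6 and Col10a1 were tested in neither genotype.

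Of the regional calls, 7 depended on single libraries, with the direction kept in each fit that left out 1 library. In wild type Col4a1 was not called without cortex replicate 3 or 4 or hippocampus replicate 5, and Col6a1 not without cortex replicate 2 or 5. Col11a2 lost its call in 5 of 10 such fits, without cortex replicate 1, 2 or 3 or hippocampus replicate 3 or 5, at 0.25 to 0.37. Col18a1 lost it in 7 of 10, without cortex replicate 1, 2, 3 or 5 or hippocampus replicate 2, 4 or 5, at 0.37 to 0.65. In Ncs1-/- Col23a1 lost its call in 7 of 10 fits, without cortex replicates 2 to 5 or hippocampus replicate 2, 4 or 5, at 0.28 to 0.43. Col8a2 lost it in 5 of 10, without cortex replicates 2 to 5 or hippocampus replicate 2, at 0.75 to 2.54. Col9a3 lost it in 7 of 10, without any one cortex replicate or hippocampus replicate 2 or 4, at 0.51 to 1.54.

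Because the hippocampus libraries differed in choroid plexus markers, the members were next read against that level across the 10 hippocampus libraries. The slope on the mean log2 level of 8 choroid markers was fitted with genotype in the model, a test added after the values had been seen. Of 40 collagens tested 5 passed, all rising with the markers, where 1.22% of all genes passed. Per doubling of the marker level Col8a1 rose by 0.73 on the log2 scale (SE 0.05, edgeR adjusted p = 1.38e-05), Col8a2 by 0.54 (SE 0.04, edgeR adjusted p = 4.52e-06) and Col9a3 by 0.41 (SE 0.03, edgeR adjusted p = 3.26e-06). The low-expressed type IV chains Col4a3 and Col4a4 each rose by 0.45, with edgeR adjusted p = 2.48e-04 and 0.00111. Col4a3 was at 3.47 CPM in wild-type hippocampus replicate 4 and 4.26 CPM in Ncs1-/- hippocampus replicate 2, and Col4a4 at 3.01 and 4.02 CPM in the same libraries. Outside these libraries and Ncs1-/- hippocampus replicate 4, Col4a3 held 0.384 to 0.978 CPM and Col4a4 0.407 to 0.824 CPM in hippocampus. Without the 3 libraries with the most Ttr 0 of 41 collagens passed in edgeR. The slopes were then 0.76 (SE 0.44) for Col8a1, 0.40 (SE 0.23) for Col8a2 and 0.13 (SE 0.16) for Col9a3, and -0.10 and -0.0064 for Col4a3 and Col4a4. The 8 markers summed to 6.73 to 15.6 CPM in wild-type cortex, 12.2 to 260.1 in Ncs1-/- cortex, 29.0 to 2366 in wild-type hippocampus and 34.2 to 3652 in Ncs1-/- hippocampus. The markers Otx2 and Slc4a5 were at 0 in some libraries, both of them in wild-type cortex replicate 5 and Ncs1-/- cortex replicate 3.

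**Figure D3:**
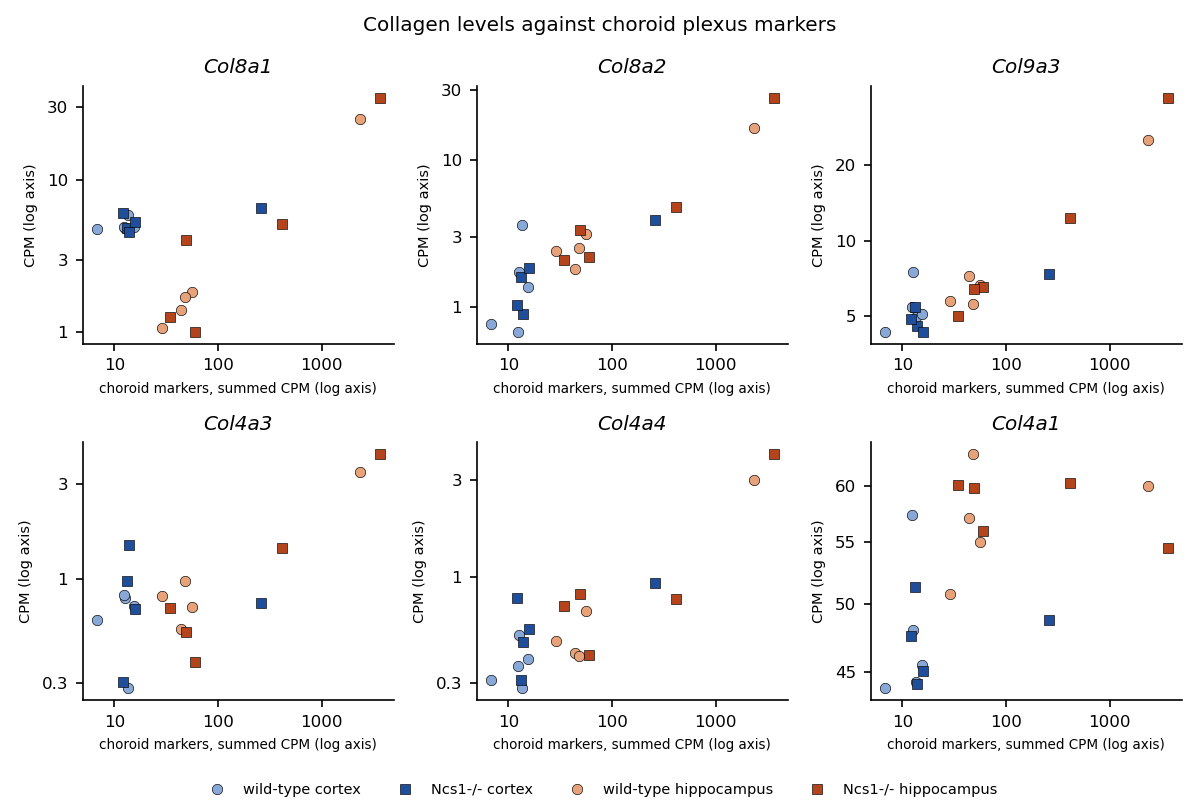
CPM of 6 collagens (y axes, log scale) against the summed CPM of 8 choroid plexus markers (x axes, log scale) in the 20 libraries, coloured by group. Col8a1, Col8a2, Col9a3, Col4a3 and Col4a4 reach their highest values in the 2 hippocampus libraries with the highest marker sums, while Col4a1 stays between 43.9 and 63.0 CPM.

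Fibrillar collagens of the brain's coverings were read in the same way against 11 markers of meningeal fibroblasts that are not collagens. These markers summed to 106 to 203 CPM in wild-type cortex, 153 to 219 in Ncs1-/- cortex, 159 to 416 in wild-type hippocampus and 117 to 413 in Ncs1-/- hippocampus, and none was at 0 in a library. In hippocampus 4 of 40 collagens passed, all rising with the markers, against 0.598% of all genes. They were the type III chain Col3a1 with a slope of 1.08 (SE 0.09, edgeR adjusted p = 1.65e-04), the type I chains Col1a2 with 0.92 (SE 0.08, edgeR adjusted p = 2.48e-04) and Col1a1 with 0.76 (SE 0.09, edgeR adjusted p = 0.00218), and the type IX chain Col9a2 with 0.63 (SE 0.09, edgeR adjusted p = 0.0100). Col3a1 was at 2.61, 8.43, 3.41, 2.82 and 4.07 CPM in wild-type hippocampus and at 1.98, 4.45, 1.13, 2.16 and 9.32 CPM in Ncs1-/- hippocampus. It was highest in wild-type replicate 2 and Ncs1-/- replicate 5. Col1a2 peaked in the same libraries, at 29.7 and 33.1 CPM, and its lowest hippocampus value was 7.21 CPM in Ncs1-/- replicate 1. The peak libraries were also the farthest from the median marker level, and without them 0 of 39 collagens passed in edgeR. The slopes in the remaining 8 libraries were 0.998 for Col3a1, 0.93 for Col1a2 and 0.79 for Col1a1, near those of the 10, and 0.28 for Col9a2. With single libraries left out, Col1a1 was not called without Ncs1-/- replicate 5, nor Col9a2 without that library or wild-type replicate 2. All 4 passed without the libraries with the most Ttr.

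In cortex, where the marker level varied less, 0 of 40 collagens passed with edgeR or limma-voom, against 0.0472% of all genes with edgeR, and 10 of 40 had an unadjusted p below 0.05 (4.59% of all genes). The smallest p belonged to the transmembrane collagen Col23a1, with a slope of 1.06 (SE 0.21, edgeR adjusted p = 0.292). It was followed by Col8a2 with 2.23 (SE 0.67, edgeR adjusted p = 0.902), Col9a2 with 0.72 (SE 0.23, edgeR adjusted p = 0.902) and Col10a1 with 1.75 (SE 0.59, edgeR adjusted p = 0.928). Col1a2 had a slope of 0.72 (SE 0.24, edgeR adjusted p = 0.928).

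**Figure D4:**
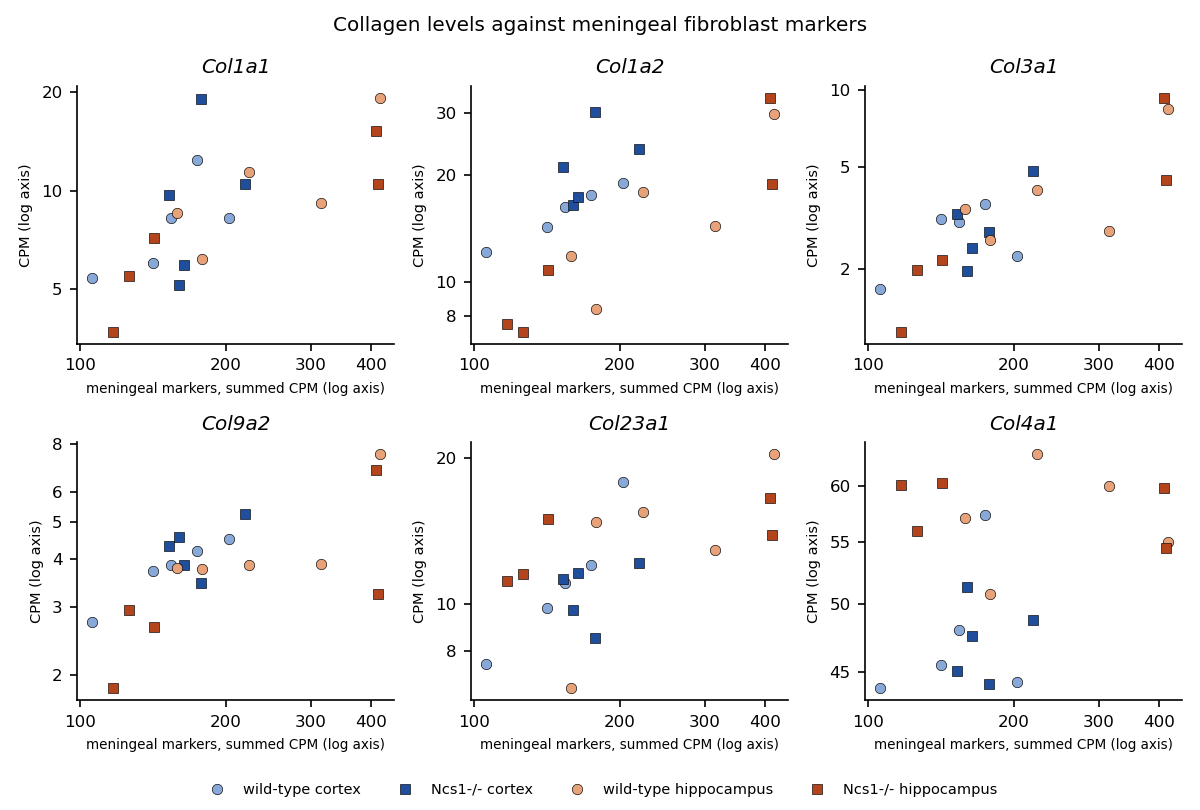
CPM of 6 collagens (y axes, log scale) against the summed CPM of 11 meningeal fibroblast markers (x axes, log scale) in the 20 libraries, coloured by group. Col1a1, Col1a2, Col3a1 and Col9a2 have their highest hippocampus values in 2 libraries with 416 and 409 CPM of markers, while Col4a1 stays between 43.9 and 63.0 CPM. Ncs1-/- hippocampus replicate 2 has 413 CPM of markers, of which Igf2 gives 248 CPM. It holds less of these 4 collagens, at 10.5, 18.9, 4.45 and 3.25 CPM in the same order. The slopes in the text were fitted on the mean log2 level of the markers and not on this sum.

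The second question was whether loss of Ncs1 went with a difference in collagen transcripts. In cortex 40 collagens were tested (Col4a4, Col6a6 and Col9a1 fell to the filter) and 0 passed the adjusted threshold in edgeR, where 0.0270% of all genes passed. At an unadjusted p below 0.05 there were 8, all of them higher in Ncs1-/-, where 8.08% of all genes had such a p and were higher. DESeq2 gave 7 and limma-voom 8 at that unadjusted level, and neither called a member after adjustment, although DESeq2 gave 34 members no adjusted p. The shares of all genes in DESeq2 and limma-voom are not given here, so their counts are not read as a trait of the collagens. The log2 difference was above 0 for 32 of 40 collagens and for 50.6% of all genes, with medians of 0.20 and 0.00. Of the type VI chains 5 of 5 tested were above 0 (median 0.55), of the fibril-forming collagens 10 of 11 (median 0.26) and of the type IV chains 3 of 5 (median 0.05). Of the meningeal markers 10 of 11 were above 0 as well, with a median of 0.21, and of 11 basement membrane partners (laminins, nidogens, perlecan and agrin) 11 were above 0, with a median of 0.14. With the meningeal marker level in the model the median of the collagens was 0.16, and 7 kept an unadjusted p below 0.05. With the level of striatal markers in the model the median was 0.16 and the number 6. The shares of all genes in these fits are not given here.

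Col2a1, the main collagen of cartilage, had the smallest p. It was counted at 0.733, 0.329, 0.697, 0.490 and 0.573 CPM in wild-type cortex and at 0.756, 1.08, 1.42, 0.905 and 0.846 CPM in Ncs1-/- cortex. The groups did not overlap, and neither did those of Col6a5, while 0.931% of all genes were higher without overlap. The log2 difference of Col2a1 was 0.83 (SE 0.27) and did not pass after adjustment (edgeR adjusted p = 0.235). Col6a3 held 2.20, 2.82, 2.01, 3.33 and 3.49 CPM in wild type and 3.26, 4.89, 4.32, 4.37 and 3.26 CPM in Ncs1-/- (0.55, SE 0.18, edgeR adjusted p = 0.239). Col18a1 held 3.10, 2.91, 2.94, 4.36 and 3.38 CPM in wild type and 5.06, 4.48, 3.90, 4.58 and 4.11 CPM in Ncs1-/- (0.41, SE 0.14, edgeR adjusted p = 0.243). In wild type 2 libraries of Col6a3 and 1 of Col18a1 lay above the lowest Ncs1-/- library. Col1a2 went from 15.9 ± 2.71 to 21.8 ± 5.49 CPM (SD, n = 5 each, log2 difference 0.47, SE 0.16, edgeR adjusted p = 0.245). The remaining members with an unadjusted p below 0.05 were Col6a5 with 0.91, Col6a4 with 0.97, Col5a2 with 0.38 and Col12a1 with 0.31. Col4a1 held 47.8 ± 5.58 and 47.4 ± 2.88 CPM (SD, n = 5 each).

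In hippocampus 40 collagens were tested and 0 passed in edgeR (0.0266% of all genes did), in DESeq2 or in limma-voom. At an unadjusted p below 0.05 edgeR and DESeq2 each gave 2 members and limma-voom 1, against 3.78% of all genes in edgeR. Shares of all genes in DESeq2 and limma-voom are not given here. No member separated the groups (0.459% of all genes did). The log2 difference was above 0 for 30 of 40 collagens and for 53.1% of all genes, with medians of 0.11 and 0.01. Col6a3 had the smallest p, with 1.496, 2.89, 2.62, 2.12 and 3.18 CPM in wild type and 1.80, 8.44, 2.06, 17.9 and 4.35 CPM in Ncs1-/-. Its 2 highest libraries were 2 of the 3 with the most Ttr, while the other of these, wild-type replicate 4, held 2.12 CPM. The log2 difference of Col6a3 was 1.49 (SE 0.56, edgeR adjusted p = 0.991), and 0.12 (SE 0.35) without the 3 libraries with the most Ttr. Its slope on the choroid markers, 0.23 (SE 0.12), did not pass. Col19a1 held 33.2 ± 5.01 and 39.8 ± 6.01 CPM (SD, n = 5 each, log2 difference 0.27, SE 0.12, edgeR adjusted p = 0.991). Next came Col5a3 with 0.33 (SE 0.16) and Col15a1, a multiplexin of vessel basement membranes, with 0.32 (SE 0.17).

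Whether the genotype difference itself differed between regions was tested with the interaction over all 20 libraries. Of 42 collagens tested 0 passed in edgeR, where 0 of all genes passed, and 0 in DESeq2 and limma-voom. At an unadjusted p below 0.05 there was 1, Col2a1 (-0.73, SE 0.34, edgeR adjusted p = 0.9998), against 1.40% of all genes. Its Ncs1-/- hippocampus level was 1.01 ± 0.126 CPM and its wild-type hippocampus level 0.949 ± 0.308 CPM (SD, n = 5 each), where cortex had held 1.002 ± 0.264 and 0.564 ± 0.164 CPM. Col28a1 followed with -0.85 (SE 0.47, edgeR adjusted p = 0.9998).

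**Figure D5:**
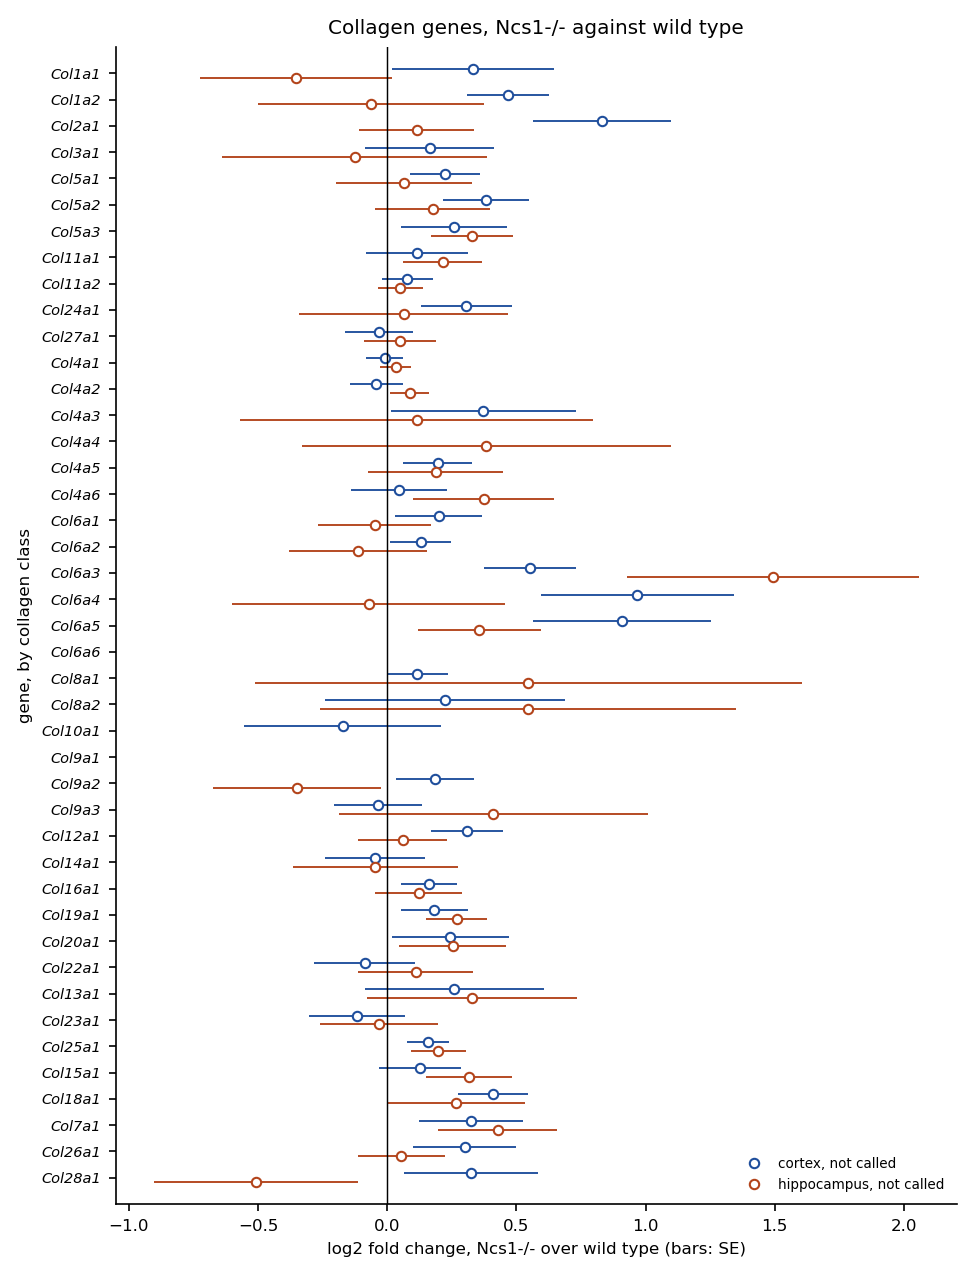
Log2 fold change of Ncs1-/- over wild type (x axis, bars are standard errors) for each tested collagen gene (y axis, by class) in cortex (blue) and hippocampus (orange). All points are open because 0 members passed an adjusted p of 0.05 in either region, and 32 of 40 cortex points and 30 of 40 hippocampus points lie right of 0.

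Genes that build, bind or break down collagen were followed as 4 lists. Among 30 genes of collagen synthesis, folding and crosslinking 29 were tested between regions, and 11 were higher and 1 lower in hippocampus in each genotype, where 18.8% and 20.7% of all genes were higher and lower in wild type and 19.2% and 19.6% in Ncs1-/-. They include the procollagen lysyl hydroxylases Plod1, Plod2 and Plod3, higher by 0.34, 0.35 and 0.31 in wild type and by 0.41, 0.41 and 0.19 in Ncs1-/-. The procollagen propeptidase Adamts14 showed the widest difference, at 0.194 to 0.588 CPM in cortex and 1.36 to 3.17 CPM in hippocampus (log2 difference 2.52, SE 0.32 in wild type and 2.60, SE 0.24 in Ncs1-/-). Loxl1, an enzyme that crosslinks elastin and collagen, was higher by 1.44 and 1.28. The collagen galactosyltransferase Colgalt2 was the gene lower in wild type and the prolyl hydroxylase subunit P4ha3 the gene lower in Ncs1-/-. Between genotypes the smallest p of the list belonged to Ppib in cortex (edgeR adjusted p = 0.416) and P3h3 in hippocampus (edgeR adjusted p = 0.991).

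Of 10 collagen receptors 9 were tested between regions, and 2 were higher and 3 lower in wild-type hippocampus, 1 and 1 in Ncs1-/- hippocampus. In either direction 39.5% of all genes passed in wild type and 38.8% in Ncs1-/-, which is also the background of the next lists. Itga1, the alpha chain of a collagen-binding integrin, fell by 0.70 in wild-type and 0.60 in Ncs1-/- hippocampus, and the receptor tyrosine kinase Ddr1 was higher by 0.28 and 0.31. Itga11, another integrin alpha chain, had the smallest p of the receptors between genotypes, in cortex (0.59, SE 0.17, edgeR adjusted p = 0.229). Of 11 genes of collagen degradation 8 were tested, with 2 higher in hippocampus in each genotype: the metalloproteinase Mmp14, by 0.50 and 0.52, and the inhibitor Timp4, by 0.48 and 0.52. Ctsk, the collagen-cutting cathepsin of osteoclasts, was lower in Ncs1-/- hippocampus (-1.14, SE 0.26, edgeR adjusted p = 0.00358). Of the 11 basement membrane partners 1 was higher and 1 lower in each genotype. The higher one was Lamb1, a laminin beta chain, by 1.39 (SE 0.11) in wild type and 1.19 (SE 0.08) in Ncs1-/-, with no overlap: 13.7 to 20.0 CPM in cortex and 34.1 to 51.6 CPM in hippocampus. Lama4, a laminin alpha chain of vessels, fell by 0.79 and 0.77, the opposite direction from Col4a1. Between genotypes Lama5, another laminin alpha chain, had the smallest p of these partners in both regions, with edgeR adjusted p = 0.266 in cortex and 0.991 in hippocampus.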

How the data were processed

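RNA-seq of 20 mouse brain libraries was analysed from 1 deposited table per region. The values are expected counts per gene, not scaled for depth, as deposited by the authors: in each library 22.6% to 27.3% of values lay over 0.001 from a whole number. STAR 2.7.3a, Partek and build mm10 are named per the submitters' processing notes. The annotation and the strand setting are given neither by the labels nor by the tables. Groups and replicate numbers came from the sample titles, and coordinates from the tables. Exonic lengths came from a separate GENCODE mouse annotation, as the union of the exons of each gene symbol.

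The members, gene lists and tests were chosen with earlier results of these data known. Expected counts were rounded and fitted over all genes in edgeR 4.0.16 (R 4.3.3) with filterByExpr, TMM scaling and quasi-likelihood tests, adjusted by Benjamini-Hochberg at 0.05. Standard errors were the log2 fold change over the root of F. Levels are CPM after TMM scaling over the 20 libraries, and log2 levels used a prior count of 2. The group means set against the member threshold and the summed level of all members were not TMM-scaled. Slopes on marker levels had genotype in the model. Other settings tried were size factors of DESeq2 or total counts in place of TMM, no filter, DESeq2 1.42.0 or limma-voom (limma 3.58.1) as the test, a replicate block, leaving out single libraries, the trend with length removed (lowess span 0.3), marker levels as covariates and, chosen after seeing the data, leaving out the 3 hippocampus libraries with the most Ttr. The fitting scripts were tested on simulated data.

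Genes were named by rule: Ncs1, members called between genotypes, the 4 members with the smallest p in each genotype comparison and 2 in the interaction, the 6 highest per exonic length in each region, up to 6 per direction of the called members without overlap between regions, the 4 steepest of the meningeal slopes that passed or, where none did, those with the smallest p, and members within 25% of the 0.5 CPM threshold. Others were named after their values were seen. Col4a1, Col4a2, Col9a3 and Col10a1 overlap another listed gene. Start-site windows came from a RefSeq table of GRCm38.p6.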

Additional observations from a re-analysis of the deposited data

Results flagged for a closer look

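In 14 of 172 sets of 5 libraries (8.14%), 1 for each collagen in each group, 1 library stood apart from the other 4 by Dixon's criterion on log2 CPM, where chance gives about 1 in 20. The sets share the same libraries, and the share over all genes is not given here, so the difference is not read as a trait of the collagens. In wild-type hippocampus replicate 4 the values standing apart were Col8a1 at 25.05 CPM (others 1.06 to 1.83), Col8a2 at 16.7 CPM (others 1.82 to 3.18), Col9a3 at 25.2 CPM (others 5.58 to 7.25) and Col4a4 at 3.01 CPM (others 0.407 to 0.675). In Ncs1-/- hippocampus replicate 2 they were Col4a4 at 4.02 CPM (others 0.414 to 0.824) and, on the low side, Col6a4 at 0.503 CPM (others 3.05 to 5.92). Both libraries were among those with the most Ttr. Col6a4, a type VI chain, was also low in wild-type hippocampus replicate 1, at 0.627 CPM (others 4.21 to 5.45).

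The other flagged hippocampus values were Col9a2 at 7.52 CPM in wild-type replicate 2 (others 3.76 to 3.90), a library rich in meningeal markers, and Col6a6 at 0.654 CPM in Ncs1-/- replicate 5 (others 0.309 to 0.384). In wild-type cortex the values were Col4a3 at 0.282 CPM in replicate 1 (others 0.619 to 0.833), Col8a1 at 5.87 CPM in replicate 1 (others 4.80 to 4.90), Col6a5 at 0.155 CPM in replicate 3 (others 0.729 to 1.03) and Col5a3 at 3.18 CPM in replicate 5 (others 1.51 to 1.86). In Ncs1-/- cortex it was Col22a1 at 1.10 CPM in replicate 1 (others 1.80 to 2.11). Their causes were not tested.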

How the results depend on the processing

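In the wild-type regional comparison the 6 collagens higher in hippocampus became 10 with the replicate block, 11 with total counts only and 10 with the length trend removed, and 3 to 9 with single libraries left out (3 without wild-type cortex replicate 3). The hippocampal meningeal slopes, 4 in the reported fit, became 0 with the replicate block, 0 without the 2 libraries farthest from the median marker level and 2 to 4 with single libraries left out (2 without Ncs1-/- hippocampus replicate 5). The choroid slopes, 5 in the reported fit, became 0 without the 2 farthest libraries, 0 without the 3 libraries with the most Ttr, where Col4a3 gave -0.10 and Col4a4 -0.0064, and 4 to 7 with single libraries left out. Shares of all genes under these settings are not given here, so the counts of collagens above cannot be set against them. Differences near 0 turned sign. Between genotypes in cortex, with single libraries left out Col4a2 (-0.04) ranged from -0.11 to 0.055, and Col4a1 (-0.01) from -0.040 to 0.063. In hippocampus Col1a2 (-0.06) was 0.18 with the meningeal level in the model and -0.56 to 0.25 with single libraries left out, and Col4a1 (0.03) ranged from -0.0087 to 0.070. Between regions in wild type, Col1a2 (0.05) was -0.050 with limma-voom, -0.029 with the replicate block, and -0.26 to 0.21 with single libraries left out. In the interaction Col4a1 (0.03) ranged from -0.038 to 0.076. The causes were not tested.

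Replicate numbers were not treated as pairs, since no label ties them to a mouse and not every same-numbered pair correlated over 0.1. Deviations of same-numbered libraries correlated at 0.0847 to 0.372 between wild-type cortex and hippocampus, with 4 of 5 over 0.1 and 5 of 5 best with their own number, a hint of pairing from the data, and at -0.143 to 0.186 in Ncs1-/-, with 4 of 5 and 3 of 5. With the replicate block the regional calls were 10 higher and 8 lower in wild type and 7 and 9 in Ncs1-/-, and 0 collagens passed between genotypes. The shares of all genes with the block are not given here. Without wild-type cortex replicate 5, 563 genes and 0 collagens passed between genotypes in cortex. At these depths collagens below about 0.5 CPM were mostly lost to the filter.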

Other observations

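Col6a4 varied widely between libraries, with coefficients of variation of 68.6%, 24.6%, 48.5% and 57.5% in the 4 groups, in the order below. In wild-type cortex it was counted at 0.620, 6.11, 1.59, 3.48 and 3.64 CPM and in Ncs1-/- cortex at 4.59, 7.41, 7.54, 4.42 and 6.29 CPM. Wild-type hippocampus held 0.627, 5.45, 4.21, 4.40 and 4.32 CPM and Ncs1-/- hippocampus 4.99, 0.503, 5.92, 3.05 and 3.55 CPM. Among wild-type libraries the first replicate was the lowest in both regions, while Col6a1 held 37.6 CPM and 34.9 CPM in those libraries.

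Per kilobase, Col1a2 over Col1a1 was 0.745 to 1.70 in cortex (median 1.19) and 0.697 to 1.15 in hippocampus (median 0.822), and Col6a1 over Col6a2 was 5.504 to 9.53 in cortex (median 7.90) and 4.59 to 9.15 in hippocampus (median 6.49). Type I trimers hold more of the Col1a1 chain than of the Col1a2 chain, and type VI trimers hold Col6a1 and Col6a2 in equal number. The ratios above are of RNA and do not count chains, and they depend on the exonic length used. That length was 6.56 kilobases for Col1a1, 12.4 for Col1a2, 4.38 for Col6a1 and 8.33 for Col6a2. Before division by length, the cortex means of Col6a1 and Col6a2 were 62.5 and 15.5 CPM. In the choroid slope fit the collagen-related genes that passed were Pcolce2 with 0.23, Fap with 0.50, Mmp2 with 0.19 and Nid2 with 0.20, and in the meningeal fit of hippocampus they were Mrc2 with 0.68, Ddr2 with 0.48, Lama4 with 0.41 and Nid1 with 0.48.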
